A study of Mus musculus with 4 samples.

Results

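The 7 genes Acod1, Nos2, Arg1, Arg2, Ass1, Slc7a2 and Odc1, which encode enzymes of itaconate and arginine metabolism and an arginine transporter, were read across 4 RNA-seq libraries of mouse macrophages. They were taken by name from a table of 54532 genes. They were selected on the read counts of these same 4 libraries, proposed with them in view, so their levels and ratios are given as a description and no test is attached to them. The libraries came from wild-type peritoneal macrophages, which the study elicited with thioglycollate in BALB/c mice. 1 library was made for each combination of medium and compound, so there are no replicates and every interval given here covers counting error only. The medium was either normal medium or held 30% 4T1-CM, the conditioned medium of the mouse mammary carcinoma line 4T1. Each was combined either with DMSO, the vehicle, or with CH223191 at 10 µM, an antagonist of the aryl hydrocarbon receptor (AHR). The 4T1-CM is an undefined mixture of what the tumour cells release and use up, and the length of the treatment is not given in the sources used here. How many mice contributed cells to a library is not given either.

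The libraries held between 15535405 and 17557127 reads counted on genes, and all 7 genes passed the filter of at least 10 reads in at least 1 library, as 13715 genes did. Nos2 passed it through the libraries with 4T1-CM alone. The 8 macrophage markers examined were detected in every library, and their summed level was 14300 and 18500 CPM (read counts scaled by TMM and library size) in normal medium and 40650 and 43450 CPM in 4T1-CM, most of it Lyz2. The 9 neutrophil markers summed to 67.6 and 74.6 CPM in normal medium and to 241.6 and 180.8 CPM in 4T1-CM, while S100a9, Ly6g and Retnlg had 0 reads in all 4 libraries. Mmp8 of that list had 35, 21, 2142 and 759 reads in the order used throughout: normal medium under DMSO and under CH223191, then 4T1-CM under DMSO and under CH223191. S100a8 had 99, 190, 560 and 412 and Csf3r 929, 959, 1521 and 1759, both higher in 4T1-CM, whereas Cxcr2 had 12, 9, 2 and 0. Ltf and Camp had at most 6 reads. The 6 fibroblast markers summed to 63.0, 30.1, 149.3 and 127.4 CPM in the same order. The 5 epithelial markers summed to at most 1.35 CPM, with Krt5 at 0 in all libraries. B cell and eosinophil markers summed to at most 34.3 and 16.3 CPM, and those of dendritic, mesothelial and mast cells to at most 3.77, 1.32 and 0.185 CPM. The T cell list was nearly all Il7r, with Cd3e, Cd3d, Cd3g and Trac at 0 in every library. The part of these other markers in the values of the 7 genes was not tested. In bulk libraries, fewer cells of a type and less RNA per cell cannot be told apart.

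Itaconate is made in mitochondria from cis-aconitate, an intermediate of the citric acid cycle, by the enzyme that Acod1 encodes, and it accumulates in activated macrophages. Arginine enters the cell through cationic amino acid transporters and is then claimed by competing enzymes. Nitric oxide synthase turns it into nitric oxide and citrulline, and citrulline can be recycled into arginine, whereas arginase splits it into urea and ornithine, the precursor of polyamines and proline. High arginase and high inducible nitric oxide synthase are textbook marks of differently activated mouse macrophages.

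Since CH223191 acts on AHR, the bases before the gene start are shown for the 3 members whose promoters were in the RefSeq table used, on GRCm38.p6 and 5′ to 3′ on the strand of the gene. Capitals mark matches to GCGTG, the core of the AHR response element, or to its reverse complement. The stretches are chr14:103046762-103046976 for Acod1, chr2:31470020-31470206 for Ass1 and chr12:17544623-17544793 for Odc1, all upstream of genes on the plus strand.
Acod1: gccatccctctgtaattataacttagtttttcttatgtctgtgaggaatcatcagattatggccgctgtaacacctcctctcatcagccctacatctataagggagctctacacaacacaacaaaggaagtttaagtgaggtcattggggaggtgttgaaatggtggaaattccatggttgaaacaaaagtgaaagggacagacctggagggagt
Ass1: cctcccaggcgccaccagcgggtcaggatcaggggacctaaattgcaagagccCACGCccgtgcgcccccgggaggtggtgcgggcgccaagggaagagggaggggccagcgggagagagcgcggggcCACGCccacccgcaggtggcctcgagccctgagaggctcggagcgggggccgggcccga
Odc1: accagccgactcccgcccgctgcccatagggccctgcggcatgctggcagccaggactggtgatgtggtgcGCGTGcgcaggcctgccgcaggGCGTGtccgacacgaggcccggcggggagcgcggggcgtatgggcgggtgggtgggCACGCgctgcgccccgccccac

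The 250 bases before the RefSeq start held 0 matches to the AHR core for Acod1, 2 for Ass1 and 3 for Odc1. Of 32851 such windows over all genes, 28.2% held at least 1 match. These 250-base windows, of which only the bases outside the gene are printed, also differed in base composition. They held 44.4% G or C for Acod1, 75.6% for Ass1 and 80.0% for Odc1, against a median of 52.4% over all windows. The windows of these 3 genes held 0 matches to TTCNNNGAA (STAT, 7.02% of all windows), TGANTCA (AP-1, 6.75%), TGACGTCA (CRE, 1.55%), TGACNNNGC (the antioxidant response element core, 10.2%) and TTGCNNAA (C/EBP, 9.56%), all searched on both strands. The ISRE and the NF-kB consensus also had 0 matches in them, and 2.98% and 7.25% of all windows held one. A match is a run of letters and not a bound site, and the absence of a match says only that these letters are not in the window. For Nos2, Arg1, Arg2 and Slc7a2 no promoter is printed.

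The 7 genes together had 2829 reads under DMSO and 3198 under CH223191 in normal medium, and 50871 and 53844 in 4T1-CM. This was 0.0182%, 0.0198%, 0.290% and 0.329% of the reads of those libraries. With DMSO, 6 of the 7 genes were at least 2-fold higher in 4T1-CM, where 12.2% of all genes tested were, and none was at least 2-fold lower, where 6.11% were. With CH223191 the same 6 genes were at least 2-fold higher, where 12% of genes tested were, and none was lower, where 7.86% were. In both comparisons together, 8.18% of genes tested were at least 2-fold higher in 4T1-CM and 3.38% at least 2-fold lower. Counting intervals lay above 0 for the same 6 genes in each comparison, where 29.7% of genes tested had one with DMSO and 31.3% with CH223191. They lay below 0 for none with DMSO, where 30.3% did, and for Odc1 alone with CH223191, where 31.6% did. The 6 genes were Acod1, Nos2, Arg1, Arg2, Ass1 and Slc7a2, and the one outside was Odc1. Since the members were proposed from these values, and Nos2 could pass the filter only by being high in 4T1-CM, nothing is read from these counts.

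**Figure D1:**
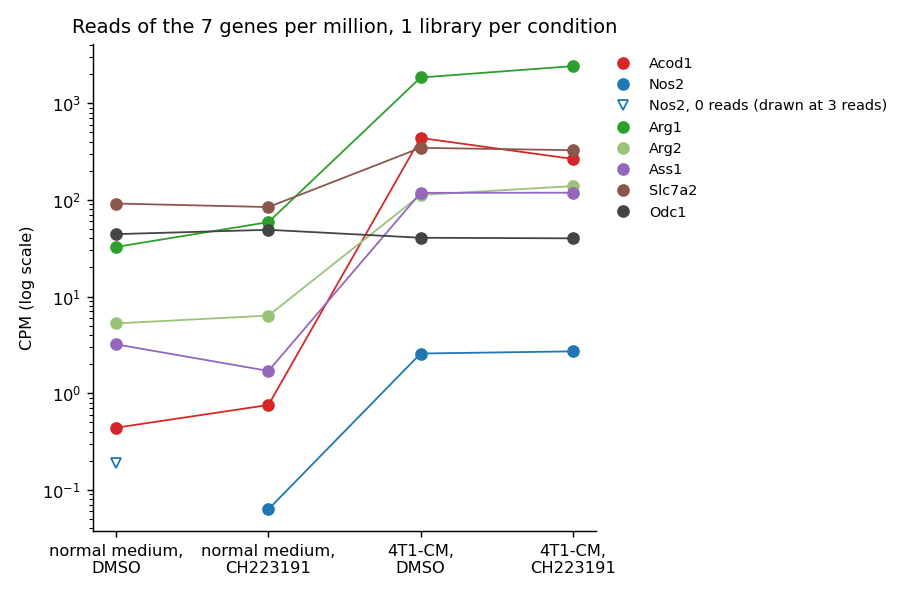
TMM-scaled level in CPM (log axis) of the 7 genes in the 4 libraries, 1 point per library with lines joining the points of a gene, and Nos2 in normal medium with DMSO (0 reads) drawn as an open triangle at the level of 3 reads. Acod1 went from 0.439 to 437.6 CPM with DMSO, whereas Odc1 stayed between 40.0 and 49.1 CPM in all 4 libraries.

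Acod1 (ENSMUSG00000022126, chr14:103046977-103056573 on the plus strand, 5 exons) encodes aconitate decarboxylase, the enzyme that makes itaconate. It had 7 reads under DMSO and 12 under CH223191 in normal medium, and 7661 and 4309 in 4T1-CM, or 0.439, 0.755, 437.6 and 265.2 CPM. Both libraries in normal medium were thus close to the lower end of what these depths resolve, and both in 4T1-CM were far above them. The log2 ratio of 4T1-CM to normal medium was 9.86 with DMSO (95% counting interval 8.92 to 11.28), a 996.6-fold higher CPM. The log2 ratio is the lower of these because a prior count of 0.5 was added before it was taken. With CH223191 the log2 ratio was 8.40 (7.65 to 9.41), a 351.5-fold higher CPM. Among the 8323 genes whose mean reached 10 CPM, Acod1 had the fourth highest ratio with DMSO and the fifth highest with CH223191.

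Acod1 was lower with CH223191 than with DMSO in 4T1-CM, whereas its reads in normal medium were too few to separate the compounds. In 4T1-CM the log2 ratio of CH223191 to DMSO was -0.72 (-0.78 to -0.67), or 0.606-fold. This placed Acod1 19 from the lowest among the 8323 genes whose mean reached 10 CPM, a mean it reached only through 4T1-CM. Among all 13715 genes tested it was 619 from the lowest. In normal medium the log2 ratio was 0.74, and its interval of -0.68 to 2.37 reflects the 7 and 12 reads behind it. The response to 4T1-CM differed between CH223191 and DMSO by -1.46 on the log2 scale (-2.81 to -0.12). Most of the width of that interval comes from the low reads in normal medium, whereas the difference between the libraries in 4T1-CM rests on 4309 and 7661 reads. In an additive fit over all 4 libraries, which takes 1 effect of CH223191 in both media, the log2 ratio was -0.58. Acod1 shared none of its 50-base words with another transcript.

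Nos2 (ENSMUSG00000020826, chr11:78920787-78960254 on the plus strand, 27 exons) encodes the inducible nitric oxide synthase, and per kilobase it was the lowest of the 7 genes in every library. It had 0 reads under DMSO and 1 under CH223191 in normal medium, and 45 and 44 in 4T1-CM, which there was 2.57 and 2.71 CPM. With 0 reads in normal medium, a level of up to 0.188 CPM is allowed there by a floor of 3 reads. Against that floor Nos2 was at least 13.7-fold higher in 4T1-CM with DMSO. With CH223191 the ratio of 44 reads to 1 was 43.1 after scaling, with a counting interval of 7.34 to 1740. The libraries in 4T1-CM differed by a log2 ratio of 0.07 (-0.56 to 0.71) for CH223191 against DMSO, so a change of less than about that size was not detectable at this depth. None of its 50-base words occurred in another gene. Even in 4T1-CM, Nos2 ranked 11380 and 11369 among the 13715 genes tested by CPM per kilobase of gene length.

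Arg1 (ENSMUSG00000019987, chr10:24915221-24927484 on the minus strand, 8 exons) encodes the cytosolic arginase. It had 520 reads under DMSO and 936 under CH223191 in normal medium, and 32359 and 39348 in 4T1-CM, or 32.6, 58.9, 1848 and 2422 CPM. Per kilobase of the gene length supplied with the counts, it was the most abundant of the 7 genes in every library. Odc1 was counted for this without its pseudogene copies. The supplied length is 2228 bases for Arg1 and 9135 for Slc7a2, and the longest coding sequences are 969 and 2022. By coding sequence Slc7a2, with 1462 reads, would pass Arg1, with 520, in normal medium with DMSO. For Arg1, both libraries in 4T1-CM were far above both in normal medium. Between media the log2 ratio was 5.82 with DMSO (5.70 to 5.95), or 56.7-fold, and 5.36 with CH223191 (5.27 to 5.46), or 41.2-fold. By CPM per kilobase it moved from rank 2952 of 13715 to rank 41 with DMSO, and from rank 1787 to rank 28 with CH223191. No 50-base word of Arg1 was shared with another gene.

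Arg1 was higher with CH223191 than with DMSO in both media. In normal medium the log2 ratio was 0.85 (0.695 to 1.009), or 1.80-fold, and in 4T1-CM it was 0.39 (0.37 to 0.41), or 1.31-fold. Neither ratio reached 2-fold. Its response to 4T1-CM was smaller with CH223191 by 0.46 on the log2 scale, a difference of -0.46 (-0.62 to -0.30), since the level in normal medium moved more than the level in 4T1-CM. In 4T1-CM the level of Arg1 was thus higher with CH223191 and that of Acod1 lower.

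Arg2 (ENSMUSG00000021125, chr12:79130777-79156301 on the plus strand, 8 exons) encodes the mitochondrial arginase. It had 84 reads under DMSO and 101 under CH223191 in normal medium, and 1970 and 2256 in 4T1-CM, or 5.27, 6.35, 112.5 and 138.9 CPM. Arg2 thus gave a log2 ratio of 4T1-CM to normal medium of 4.41 with DMSO (4.10 to 4.75), or 21.4-fold, and 4.44 with CH223191 (4.16 to 4.75), or 21.9-fold. These responses differed by 0.04 (-0.39 to 0.46), which is within counting error. For CH223191 against DMSO the log2 ratio was 0.27 in normal medium (-0.16 to 0.70) and 0.30 in 4T1-CM (0.22 to 0.39). Of its 50-base words, 21.2% lie where Vti1b or the antisense gene Gm48780 overlaps it on the opposite strand. Vti1b had 2340, 2473, 2067 and 1850 reads and Gm48780 had 13, 16, 17 and 34 across the libraries in the same order, so neither followed Arg2. Whether reads were counted by strand is not stated, so the reads of the overlap cannot be told apart.

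Per kilobase of gene length, Arg1 exceeded Arg2 in each library, in normal medium by 3.97-fold under DMSO (3.15 to 5.06) and 5.94-fold under CH223191 (4.83 to 7.37), and in 4T1-CM by 10.5-fold (10.06 to 11.02) and 11.2-fold (10.71 to 11.67). The cytosolic form thus took the larger share of arginase transcripts in all libraries, and its lead was widest in 4T1-CM. Arg1 also exceeded Nos2 per kilobase in 4T1-CM, by 1424-fold with DMSO (1064 to 1953) and by 1771-fold with CH223191 (1319 to 2438). Acod1 exceeded Nos2 by 286.4-fold (213.8 to 392.9) and 164.7-fold (122.5 to 227.0) in those libraries. With the longest annotated transcript or coding sequence as the length, the Arg1 to Arg2 ratio came to 5.99 or 6.79 in normal medium with DMSO and to 15.9 or 18.0 in 4T1-CM with DMSO.

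Slc7a2 (ENSMUSG00000031596, chr8:40862396-40922308 on the plus strand, 11 exons) encodes a cationic amino acid transporter that carries arginine into macrophages. It had 1462 reads under DMSO and 1341 under CH223191 in normal medium, and 6055 and 5309 in 4T1-CM, or 91.7, 84.3, 345.9 and 326.8 CPM. Both libraries in 4T1-CM were above both in normal medium, and its ratio was the smallest of those that passed 2-fold. Its log2 ratio of 4T1-CM to normal medium was 1.92 with DMSO (1.83 to 1.999), or 3.77-fold, and 1.95 with CH223191 (1.87 to 2.04), or 3.88-fold. The responses differed by 0.04 (-0.08 to 0.16). CH223191 against DMSO gave -0.12 in normal medium (-0.23 to -0.01) and -0.08 in 4T1-CM (-0.14 to -0.03). Of its 50-base words, 6.42% were shared, mostly with Gm26584 on the opposite strand, which had at most 4 reads.

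Ass1 (ENSMUSG00000076441, chr2:31470207-31520672 on the plus strand, 16 exons) encodes argininosuccinate synthase, which starts the recycling of citrulline into arginine. It had 51 reads under DMSO and 27 under CH223191 in normal medium, and 2071 and 1928 in 4T1-CM, or 3.20, 1.70, 118.3 and 118.7 CPM. The log2 ratio of 4T1-CM to normal medium was 5.20 with DMSO (4.81 to 5.64), or 37.0-fold, and 6.10 with CH223191 (5.58 to 6.73), or 69.9-fold. The libraries in 4T1-CM held nearly the same level, with a log2 ratio of 0.00 for CH223191 against DMSO (-0.09 to 0.09), whereas in normal medium it was -0.90 (-1.64 to -0.21). The larger response with CH223191, by 0.91 (0.23 to 1.59), therefore came from 51 against 27 reads in normal medium.

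These last values of Ass1 depended on a near-identical copy. The processed pseudogene Gm5424 shares 38.6% of the 50-base words of Ass1, and it had 16 reads under DMSO and 36 under CH223191 in normal medium, and 840 and 528 in 4T1-CM. Gm5424 was thus high and low in the same media as Ass1, but in normal medium it was higher with CH223191, where Ass1 was lower. Adding its reads to those of Ass1, a step chosen after seeing the data, gave 67, 63, 2911 and 2456 reads. The log2 ratio of 4T1-CM to normal medium was then 5.30 with DMSO (4.96 to 5.68) and 5.24 with CH223191 (4.89 to 5.64), so the rise in 4T1-CM held. The difference between these responses changed from 0.91 to -0.053 (-0.55 to 0.45). For CH223191 against DMSO, the log2 ratio changed from -0.90 to -0.08 in normal medium (-0.61 to 0.43) and from 0.00 to -0.14 in 4T1-CM (-0.22 to -0.06). How the authors assigned reads that match both genes is not given in the sources used here.

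Odc1 (ENSMUSG00000011179, chr12:17544794-17551505 on the plus strand, 12 exons) encodes ornithine decarboxylase, which makes the polyamine putrescine from the ornithine that arginase releases. It had 705 reads under DMSO and 780 under CH223191 in normal medium, and 710 and 650 in 4T1-CM, or 44.2, 49.1, 40.6 and 40.0 CPM. It was the only one of the 7 genes that did not reach 2-fold in any comparison. In 4T1-CM against normal medium it gave a log2 ratio of -0.12 with DMSO (-0.28 to 0.03) and -0.29 with CH223191 (-0.45 to -0.14). CH223191 against DMSO gave 0.15 in normal medium (0.00 to 0.30) and -0.02 in 4T1-CM (-0.18 to 0.14). Several processed pseudogenes share 50-base words with it, and the one with the most reads, Gm7993, had 284, 258, 242 and 172. With the reads of 5 such copies added, the log2 ratio of 4T1-CM to normal medium was -0.18 with DMSO (-0.31 to -0.05) and -0.37 with CH223191 (-0.50 to -0.24). The arginase genes upstream of it were 21.4-fold to 56.7-fold higher with DMSO, so a rise of arginase transcripts was not accompanied by one of Odc1.

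**Figure D2:**
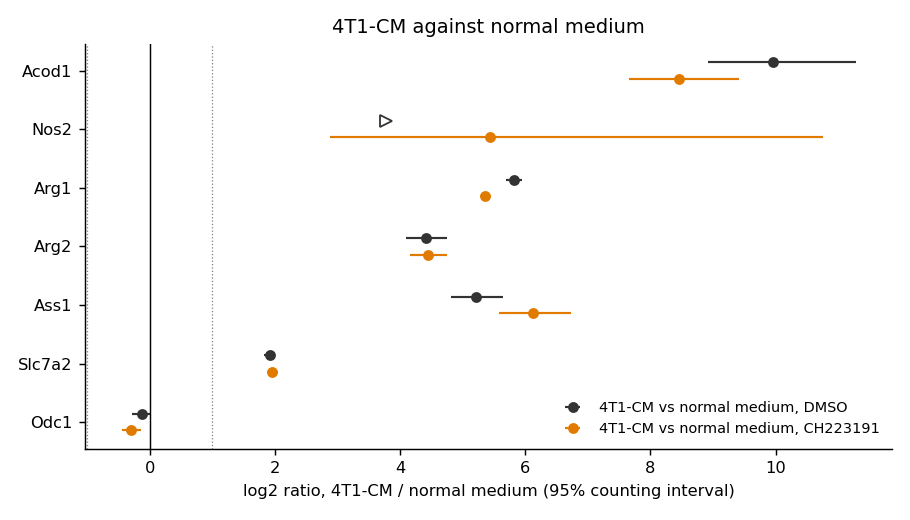
Log2 ratio of scaled reads, without a prior count, in 4T1-CM against normal medium for the 7 genes, with DMSO (dark) and with CH223191 (orange). Bars are 95% counting intervals, dotted lines mark 2-fold, and the open triangle is the lower bound of Nos2 against 3 reads; the points of Odc1 lie near 0, those of Slc7a2 near 1.9 and all others above 3.7.

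Per kilobase of the gene length supplied with the counts, the order of the 7 genes changed between media. In normal medium with DMSO it ran Arg1 at 14.6 CPM per kilobase, Odc1 at 13.0, Slc7a2 at 10.0, Arg2 at 3.69, Ass1 at 1.33 and Acod1 at 0.167, with Nos2 at 0 reads. In 4T1-CM with DMSO it ran Arg1 at 829.7, Acod1 at 166.8, Arg2 at 78.8, Ass1 at 49.0, Slc7a2 at 37.9, Odc1 at 11.9 and Nos2 at 0.583. Acod1 thus moved from next to last to second. In 4T1-CM with CH223191 Acod1 at 101.1 and Arg2 at 97.3 were not separated beyond counting error, with a ratio of 1.04 (0.988 to 1.10). On these lengths, all other neighbours in the 4 libraries were separated beyond counting error. The closest were Arg1 and Odc1 in normal medium with DMSO, with a ratio of 1.13 (1.005 to 1.264). With the reads of 5 pseudogene copies added, Odc1 had 1007 reads there against 705 without them, which would put it above Arg1. The place of Slc7a2 depends on the length used, 9135 bases here against a longest coding sequence of 2022. Nos2 was last throughout, and with 0 and 1 reads its distance to Acod1 in normal medium was not computed.

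CH223191 against DMSO moved few of the 7 genes by much. In normal medium, 1 of the 7 was at least 2-fold higher, where 4.84% of genes tested were, and this was Nos2 with 1 read against 0, for which no fold is given. None was at least 2-fold lower there, where 3.31% of genes tested were. In 4T1-CM none was at least 2-fold higher, where 2.75% were, or lower, where 2.66% were. In both media at once, 0.649% of genes tested were higher and 0.481% lower, and no member was. Counting intervals above 0 were found in normal medium for Arg1 and Odc1, where 21% of genes tested had one, and below 0 for Ass1 and Slc7a2, where 19.9% did. In 4T1-CM they lay above 0 for Arg1 and Arg2, where 13.3% of genes did, and below 0 for Acod1 and Slc7a2, where 13.5% did. Arg1 was thus above 0 and Slc7a2 below 0 in both media. The lower limit of Odc1 in normal medium was only 0.0005. With the reads of pseudogene copies added, the intervals in normal medium held 0 for Odc1 (-0.05 to 0.20) and for Ass1 (-0.61 to 0.43). In 4T1-CM the interval of Ass1 then lay below 0 (-0.22 to -0.06). The comparisons in normal medium and in 4T1-CM share no library, but with 1 culture in each they carry no estimate of the spread between cultures.

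**Figure D3:**
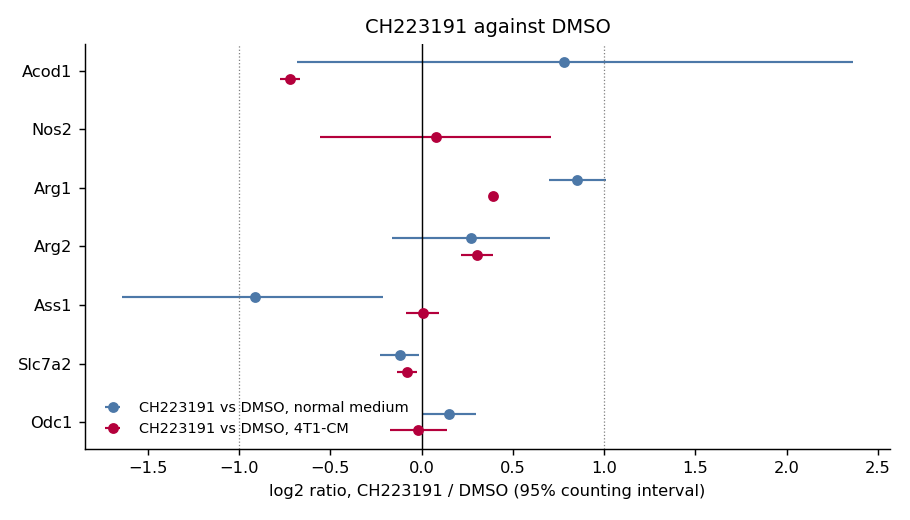
Log2 ratio of scaled reads, without a prior count, for CH223191 against DMSO in the 7 genes, in normal medium (blue) and in 4T1-CM (red), with 95% counting intervals and dotted lines at 2-fold. No point lies past 2-fold, Arg1 lies above 0 in both media, and Acod1 lies below 0 in 4T1-CM; Nos2 in normal medium is not drawn.

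The ratios were also ranked among all genes whose mean reached 10 CPM. The members were proposed from these ratios, and Acod1, Arg2 and Ass1 reach that mean only through the libraries with 4T1-CM, so the ranks are a description. With DMSO, Acod1 ranked 4, Arg1 18, Ass1 28, Arg2 40, Slc7a2 160 and Odc1 4773 of 8323 from the highest ratio of 4T1-CM to normal medium. With CH223191 the ranks were Acod1 5, Ass1 13, Arg1 21, Arg2 33, Slc7a2 141 and Odc1 5706. Nos2 was below 10 CPM and is not in this ranking. The median log2 ratio over all genes tested was 0.01 with DMSO and 0.02 with CH223191.

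**Figure D4:**
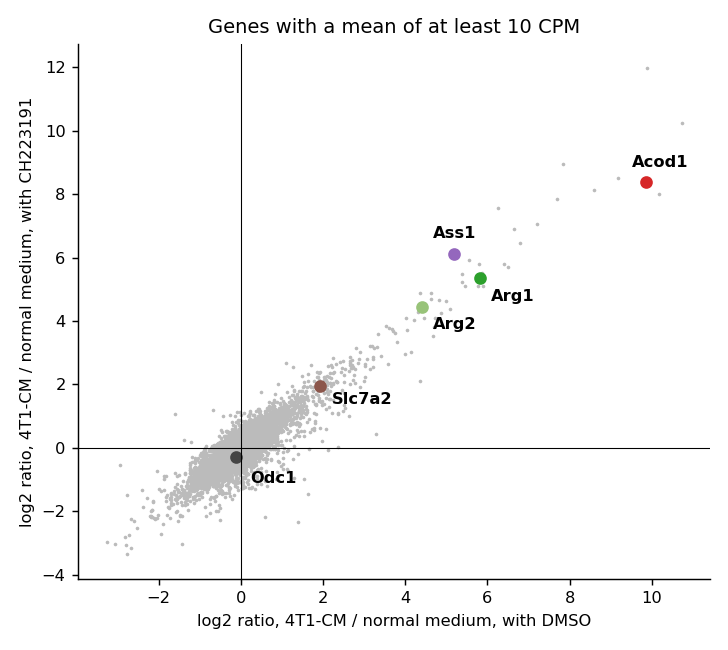
Log2 ratio of 4T1-CM to normal medium with DMSO (horizontal) and with CH223191 (vertical) for the 8323 genes whose mean reached 10 CPM, with 6 of the 7 genes in colour and Nos2, which is below that level, not drawn. Acod1 lies at 9.86 and 8.40, Arg1 at 5.82 and 5.36, and Odc1 inside the mass of genes around 0.

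The genes whose pattern over the 4 libraries was most like that of each member were taken by the Euclidean distance between centred log2 CPM, among 8135 protein-coding genes whose mean reached 10 CPM. Over 4 libraries, of which 2 are high and 2 low for most members, such a likeness says little more than that the ratios were similar. For Acod1 they were Inhba (distance 0.51), Il1b (0.77) and Hp (0.92). Inhba, which encodes the subunit of activin A, had 22, 31, 14254 and 11616 reads, and Il1b, which encodes interleukin-1 beta, had 2, 8, 3162 and 2252. For Arg1 they were Saa3 (0.25), Cd38 (0.33) and Zmynd15 (0.34). For Nos2 they were Socs3 (0.39), Saa3 (0.56) and Arg1 (0.59). Saa3 is an acute phase serum amyloid gene. Nos2 had 0 reads under DMSO and 1 under CH223191 in normal medium, so its distances depend on the prior count of 0.5. No likeness of Nos2 to these genes is read from them.

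Arg2 lay nearest to C3 (0.27), Spsb1 (0.34) and Mcemp1 (0.35). Ass1 lay nearest to Clmp (0.07), Cav1 (0.28) and Tlr2 (0.45). Clmp had 72, 41, 3008 and 2779 reads. Like Ass1 counted without Gm5424, it was lower with CH223191 in normal medium and nearly level in 4T1-CM. With the reads of Gm5424 added, the log2 ratio of Ass1 in normal medium was -0.08 (-0.61 to 0.43), so this likeness depends on the copy. Slc7a2 lay nearest to P4ha2 (0.08), Mfap3l (0.11) and Gm21188 (0.11). Odc1, which barely moved, lay nearest to Dffa (0.01), Med28 (0.02) and Rsrp1 (0.03).

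The other genes of these pathways were listed by function. The 7 members were selected on their values, and these lists were chosen with earlier results of these data known. The 2 sets are therefore set side by side as a description, and no test compares them. Of 92 listed, 81 passed the filter, and with DMSO 6 passed 2-fold upwards in 4T1-CM and 3 downwards, with a median log2 ratio of -0.12 (-0.13 when genes at 0 reads are set to their bound). With CH223191 6 were higher and 3 lower, with a median of -0.17. For CH223191 against DMSO, 1 was higher and 1 lower in normal medium, and likewise in 4T1-CM. The higher and lower shares over all genes tested were those given above, 12.2% and 6.11% with DMSO.

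Among the other arginine transporters, none of the 4 tested was past 2-fold in any comparison. Slc7a7, the light chain of an exporter of cationic amino acids, had a log2 ratio of 4T1-CM to normal medium of 0.84 with DMSO and 0.47 with CH223191. Slc7a6, a related exporter, gave 0.57 and 0.69, and Slc3a2, the heavy chain that both need, gave -0.52 and -0.51. Slc7a1, the constitutive cationic amino acid transporter, gave -0.06 and -0.46. Slc7a2 was thus the only one of the 5 transporters for arginine tested, the heavy chain included, that passed 2-fold.

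The partners of Ass1 did not follow it. Asl, argininosuccinate lyase, which completes the recycling of citrulline, had 983 reads under DMSO and 1021 under CH223191 in normal medium, and 809 and 762 in 4T1-CM, and its log2 ratios were -0.42 and -0.45. The carrier Slc25a15, which exchanges ornithine for citrulline across the mitochondrial membrane, gave -0.12 and 0.16. Cps1, Otc and Slc25a2 were below the filter, with at most 2 reads. Nags, which makes an activator of the urea cycle, was counted as past 2-fold on 0, 0, 1 and 12 reads.

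Of the nitric oxide list, 8 genes were tested, and with DMSO 2 passed 2-fold upwards in 4T1-CM and 1 downwards. Gch1, the first enzyme of the synthesis of the cofactor tetrahydrobiopterin, gave 0.52 with DMSO and 0.09 with CH223191, and so was not past 2-fold. Qdpr, which regenerates the cofactor, fell by 1.02 and by 1.16 on the log2 scale, with 1176, 1139, 635 and 521 reads. Ddah2, of a family that clears inhibitors of nitric oxide synthase, was higher by 1.32 and 1.12 but on 18, 24, 50 and 54 reads, and Ddah1 had 2, 3, 20 and 6. The other nitric oxide synthases, Nos1 and Nos3, had at most 1 and 6 reads.

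Downstream of ornithine, 1 of 15 polyamine genes tested was past 2-fold in 4T1-CM with either compound. This was Azin2, an inhibitor of antizyme, which rose by 1.58 with DMSO and 1.58 with CH223191, on 33, 32, 109 and 99 reads. The synthases came out lower without passing 2-fold. Sms, spermine synthase, had 1056, 941, 582 and 495 reads, with log2 ratios of -0.99 and -0.96, and Srm, spermidine synthase, gave -0.30 and -0.77. Smox, spermine oxidase, gave 0.87 and 0.31, and Dohh, which acts in the hypusination of Eif5a, gave -0.86 and -0.94. The median of the list was -0.24 with DMSO and -0.29 with CH223191, so most of the genes that handle polyamines lay slightly below 0 beside an Odc1 that did too.

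The route from ornithine to proline and glutamate had 0 of 6 genes past 2-fold and the lowest median of the lists, -0.45 with DMSO and -0.48 with CH223191. Oat, ornithine aminotransferase, gave -0.39 and -0.49, Prodh, proline dehydrogenase, gave -0.60 and -0.46, and the reductase Pycrl gave -0.50 and -0.65. Creatine synthesis, another use of arginine, also had 0 of 3 genes past 2-fold, with Gatm at 0.35 and 0.41 and Gamt at -0.61 and -0.82. On the lists for polyamines and proline, Azin2 was thus the only gene past 2-fold upwards in both comparisons with 4T1-CM.

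The citric acid cycle, which supplies cis-aconitate, had 0 of 23 genes past 2-fold in any comparison, with medians of -0.22 with DMSO and -0.26 with CH223191 and a range with DMSO of -0.59 to 0.26. Of the subunits of succinate dehydrogenase, the enzyme that itaconate inhibits, Sdha gave -0.59 and -0.59 and Sdhc -0.54 and -0.62. Sdhb gave -0.28 and -0.24 and Sdhd -0.30 and -0.46, nearer to the medians of the list. Of the genes known for the breakdown, uptake and sensing of itaconate, Clybl gave -0.13 and 0.14, Sugct 0.79 and 0.74, and Auh 0.16 and 0.52. The receptor gene Oxgr1 had 0 reads in all 4 libraries, and the transporter Slc13a3 had at most 1. No gene of these lists that passed the filter was past 2-fold in either comparison with 4T1-CM.

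**Figure D5:**
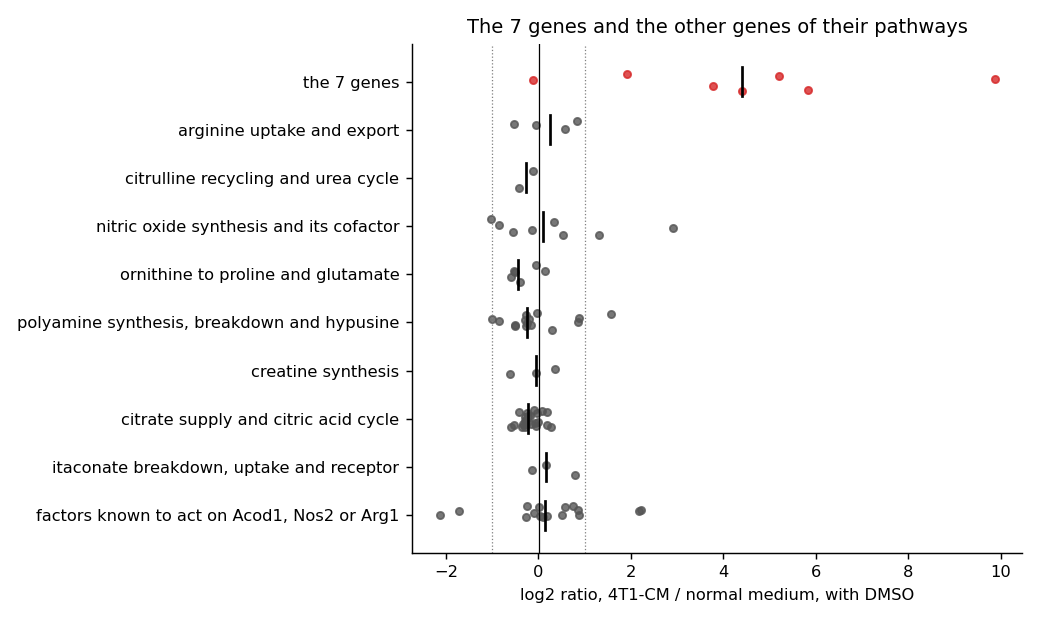
Log2 ratio of 4T1-CM to normal medium with DMSO for the 7 genes (red, Nos2 at its lower bound) and for the other tested genes of 9 lists (grey), with black bars at the medians, dotted lines at 2-fold and a thin line at the median of all genes. The list medians lie between -0.45 and 0.26, the rightmost nitric oxide gene is Ddah1 with 2 and 20 reads, and Nags is left out for its 0 and 1 reads.

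Of 16 transcription factors known to act on Acod1, Nos2 or Arg1, 4 were past 2-fold in both comparisons with 4T1-CM. Hif1a and Ahr were higher, where 8.18% of all genes tested were, and Pparg and Tfeb lower, where 3.38% were. The list was chosen with earlier results of these data known, so nothing is read from this count. Hif1a, the oxygen-regulated factor, had 1331, 1173, 6818 and 7051 reads and was higher by 2.22 with DMSO and 2.56 with CH223191. Ahr itself was higher by 2.17 and 2.93, on 30, 21, 150 and 167 reads. Pparg, which acts in lipid handling and alternative activation, fell by 2.13 and by 1.71, with 885, 824, 221 and 257 reads. Tfeb, a regulator of lysosomal genes, fell by 1.71 and by 1.58.

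Irf1, a factor known for Nos2 and Acod1 in interferon-treated macrophages, stayed within 2-fold, with log2 ratios of 0.01 with DMSO and -0.04 with CH223191. The genes of this group were named after their values were seen. Stat6, which acts on Arg1 downstream of interleukin-4, gave -0.25 and -0.59, and Stat3 gave 0.87 and 0.83. Cebpb, a known activator of Arg1, had 3639 reads under DMSO and 1777 under CH223191 in normal medium, and 5653 and 6208 in 4T1-CM. It gave 0.50 between media with DMSO and 1.77 with CH223191, past 2-fold with CH223191 alone. Its log2 ratio of CH223191 to DMSO in normal medium was -1.03, the opposite sign of that of Arg1, 0.85, in the same libraries. In 4T1-CM, Cebpb gave 0.24 and Arg1 0.39.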

How the data were processed

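The deposited file is 1 table of whole-number read counts per gene, which the authors made from 4 libraries of total RNA without normalization. The submitters' processing notes name HISAT2 2.0.5 and DESeq2. The study's methods name featureCounts for its alveolar macrophage libraries, and whether it was used here is not stated. The strand setting and genome build are not given in the sources used here. Gene coordinates in the table equal those of GENCODE M21 on GRCm38 for 53462 of 54409 shared genes and for all 7 members. The members, pathway lists and markers were chosen with earlier results of these data known.

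A gene entered when any library held 10 or more of its reads, and libraries were scaled by TMM (edgeR 4.0.16, R 4.3.3). Log2 ratios used a prior count of 0.5, and a gene was called at 2-fold. With 1 library per condition no test was possible between 2 libraries. The 95% intervals are exact Clopper-Pearson intervals of the split of reads, or come from the Poisson error of the 4 counts for a difference of responses, and reads are not independent molecules. A gene at 0 reads was bounded by 3 reads. Named beside the members were list genes past 2-fold in both comparisons of a pair, up to 4 others per list with the largest ratio, the 3 nearest patterns and near-identical copies. Further genes of these lists were named after their values were seen. The procedure was tested on simulated counts. An additive edgeR fit of medium and compound over the 4 libraries left 1 residual degree of freedom. Its error comes from what does not add up across medium and compound, and not from replicate cultures. Its p-values therefore do not measure the spread between cultures, and only its log2 ratios are used here. Sequences are from RefSeq (GRCm38.p6), and figures were drawn with matplotlib 3.10.9.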

Additional observations from a re-analysis of the deposited data

How the results depend on the processing

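No paired analysis was possible because each condition has 1 library and the labels give no replicate number shared across conditions. The additive fit, which compares media within each compound, took 1 effect of CH223191 in both media and gave a log2 ratio of 0.61 for Arg1, -0.58 for Acod1 and -0.20 for Ass1. DESeq2 size factors (DESeq2 1.42.0) and protein-coding genes alone left all 89 results examined within their error or within 1.5 times. The log2 ratio of 4T1-CM to normal medium stayed past 2-fold under every setting that kept the gene, between 9.16 and 9.86 for Acod1 with DMSO, 5.59 and 5.82 for Arg1, 4.34 and 4.43 for Arg2, 5.08 and 5.61 for Ass1 and 1.87 and 1.94 for Slc7a2. With CH223191 it was between 7.97 and 9.16 for Acod1, 5.35 and 5.59 for Arg1, 4.39 and 4.45 for Arg2, 5.24 and 6.11 for Ass1 and 1.935 and 1.962 for Slc7a2. The fitted value of Nos2, which depends on the prior count, moved most, between 3.24 and 6.42 with DMSO and 3.03 and 6.09 with CH223191. Requiring 10 reads in every library removed Acod1 and Nos2. The members higher with CH223191 in normal medium were then 0, as with a prior count of 5, and 3 at a 1.5-fold threshold. At 1.5-fold, 1 member was lower with CH223191 in each medium. Pathway genes higher in 4T1-CM with DMSO were 10 without a filter and 13 at 1.5-fold, and 9 were lower at 1.5-fold. With CH223191, 10 were higher and 16 lower at 1.5-fold. Pathway genes higher with CH223191 in normal medium were 0 under total counts or a prior of 5, 3 without a filter and 2 at 1.5-fold. In 4T1-CM, 3 were higher and 3 lower without a filter, 0 and 0 with 10 reads in every library, and 2 higher at 1.5-fold. Total counts shifted the median of all genes by at most 0.05 in size.

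Adding the reads of Gm5424 to Ass1, chosen after seeing the data, turned its difference of responses (CH223191 minus DMSO, log2) from 0.91 to -0.053, since Gm5424 moved the other way in normal medium. By the longest annotated transcript the Arg1 to Arg2 ratio was 5.99, 8.96, 15.9 and 16.9 over the libraries (normal medium with DMSO and CH223191, then 4T1-CM), and by the longest coding sequence 6.79, 10.2, 18.0 and 19.1. The Arg1 to Nos2 ratio in 4T1-CM was 2041 with DMSO and 2538 with CH223191 by the transcript, and 2547 and 3167 by the coding sequence. The Acod1 to Nos2 ratio was 399.1 and 229.6 by the coding sequence. Depth limits Nos2 in all libraries and Acod1 and Ass1 in normal medium. No setting supplies the missing replicate cultures.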
